A study of Mus musculus with 22 samples.

Results

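The 60 genes described here encode phase II enzymes of detoxification. They were chosen by symbol among 37310 genes of the GENCODE annotation of mm9. Their symbols are those of UDP-glucuronosyltransferases (Ugt1, Ugt2, Ugt3 and Ugt8), cytosolic sulfotransferases (Sult) and 6 classes of glutathione transferase (Gsta, Gstk, Gstm, Gsto, Gstp and Gstt). Glutathione transferases with other symbols, such as Gstz1 and Hpgds, are not members and were read among the other conjugating enzymes. The set holds 21 Ugt, 18 Sult and 21 Gst genes, all on autosomes. Of these, 59 were present in the RNA count files (37991 genes) and Sult2a7, annotated as a pseudogene, was not.

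Phase II enzymes attach a polar group to a hormone, a drug or a product of oxidation, which makes the compound soluble in water and ready for export. The Ugt1 and Ugt2 enzymes of the endoplasmic reticulum transfer glucuronic acid from UDP-glucuronic acid, the Sult enzymes transfer sulfate from PAPS, and the Gst enzymes join glutathione to electrophiles. The Ugt1a genes are made from a row of alternative first exons joined to shared 3′ exons, the Ugt2b, Sult2a and Gstm genes form tandem clusters of recent copies, and many members reach their full level in liver only after birth. In mid-gestation the liver is also a site of blood formation and holds hepatoblasts among blood-forming cells.

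The samples compared were wild-type mice and mice homozygous for MommeD28, an ENU-induced null allele of *Rlf*, which encodes a protein with widely spaced zinc fingers. All of them, controls included, were FVB/NJ Line3 mice, backcrossed for at least 10 generations and homozygous for a multi-copy GFP transgene under a human alpha-globin promoter with its HS-40 enhancer. Whole-genome bisulphite sequencing (WGBS) covered E10.5 embryos (labelled male), E14.5 livers (replicate 1 male, replicate 2 female) and E18.5 livers (labelled female), with 2 samples of each genotype at each stage. RNA-seq of polyadenylated RNA covered 3 wild-type and 3 mutant livers at E14.5, of which replicates 1 and 2 were male and replicate 3 female. The E10.5 and E14.5 datasets differ in tissue and stage, which cannot be told apart, and the labelled sex also differs in part between the datasets. The paper cites erythroblasts as most cells of E14.5 liver and hepatoblasts as most cells of E18.5 liver. Stage and cell makeup therefore cannot be told apart between the 2 liver datasets. The 4 E14.5 livers used for WGBS were littermates. Nothing in the sources used here says how the samples at E10.5 and E18.5 were related. The p-values set group differences against a spread estimated from these samples. For WGBS that spread was estimated over all 12 libraries in 1 fit.

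The start regions of 7 members are printed first, because the results turn on them. Each line gives the 250 bases upstream of the annotated start, 5′ to 3′ on the gene's strand, from the NCBIM37 (mm9) assembly, with CpG dinucleotides in capitals. The capitals mark the positions at which methylation can be read. The opening pair, Gstp1 and Gstp2, are neighbouring copies with opposite methylation, and Ugt2b34 is the member with the most RNA reads.
Gstp1 (chr19:4037922-4038171, minus strand): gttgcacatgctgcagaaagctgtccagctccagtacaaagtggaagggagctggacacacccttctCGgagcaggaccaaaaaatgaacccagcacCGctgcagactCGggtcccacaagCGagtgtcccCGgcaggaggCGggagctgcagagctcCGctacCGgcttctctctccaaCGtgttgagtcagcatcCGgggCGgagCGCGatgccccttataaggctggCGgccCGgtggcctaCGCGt
Gstp2 (chr19:4042222-4042471, minus strand): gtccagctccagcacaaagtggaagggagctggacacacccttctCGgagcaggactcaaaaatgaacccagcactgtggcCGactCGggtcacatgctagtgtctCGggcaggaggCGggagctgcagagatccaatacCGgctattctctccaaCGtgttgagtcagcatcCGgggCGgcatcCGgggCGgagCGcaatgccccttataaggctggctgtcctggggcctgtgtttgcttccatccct
Ugt2b34 (chr5:87335963-87336212, minus strand): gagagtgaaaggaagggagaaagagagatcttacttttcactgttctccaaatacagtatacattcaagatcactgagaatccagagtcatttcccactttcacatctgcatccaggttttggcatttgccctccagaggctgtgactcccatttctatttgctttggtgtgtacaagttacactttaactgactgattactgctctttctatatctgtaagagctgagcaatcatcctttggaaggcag

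Sult2b1 and Gstm6 had the largest methylation differences between genotypes. Ugt1a9 and Gstm3 had the largest RNA differences among the members that passed the test.
Sult2b1 (chr7:53014983-53015232, minus strand): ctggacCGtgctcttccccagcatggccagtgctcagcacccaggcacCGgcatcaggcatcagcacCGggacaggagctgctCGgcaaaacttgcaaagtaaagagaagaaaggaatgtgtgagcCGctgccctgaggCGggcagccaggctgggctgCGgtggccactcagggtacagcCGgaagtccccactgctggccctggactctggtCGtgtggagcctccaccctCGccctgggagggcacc
Gstm6 (chr3:107746668-107746917, minus strand): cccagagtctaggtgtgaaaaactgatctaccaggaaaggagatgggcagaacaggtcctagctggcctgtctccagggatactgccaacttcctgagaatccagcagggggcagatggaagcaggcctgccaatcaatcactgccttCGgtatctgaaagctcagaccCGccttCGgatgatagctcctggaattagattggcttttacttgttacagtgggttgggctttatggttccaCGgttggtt
Ugt1a9 (chr1:89967125-89967374, plus strand): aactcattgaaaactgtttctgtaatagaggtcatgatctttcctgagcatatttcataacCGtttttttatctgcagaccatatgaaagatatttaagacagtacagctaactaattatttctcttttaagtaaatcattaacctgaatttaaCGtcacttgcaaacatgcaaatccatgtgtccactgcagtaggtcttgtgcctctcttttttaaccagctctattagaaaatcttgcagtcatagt
Gstm3 (chr3:107772202-107772451, minus strand): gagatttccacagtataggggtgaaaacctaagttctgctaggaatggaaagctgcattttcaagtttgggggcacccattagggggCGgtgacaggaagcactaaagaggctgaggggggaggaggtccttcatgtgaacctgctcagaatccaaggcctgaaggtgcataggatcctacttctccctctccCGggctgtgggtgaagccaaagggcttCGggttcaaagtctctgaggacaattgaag

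These stretches hold 17 CpGs in Gstp1, 12 in Gstp2, 10 in Sult2b1, 4 in Gstm6, 3 in Gstm3, 2 in Ugt1a9 and none in Ugt2b34. The Gstp1 and Gstp2 stretches matched at 202 of 274 aligned positions (73.7% identity).

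The RNA libraries held 12928313 to 14621004 counts. WGBS depth on autosomes was 15.1 to 17.2 reads per CpG at E10.5, 29.7 to 33.5 at E14.5 and 16.1 to 16.6 at E18.5. Between 0.0412% and 0.0775% of reads over CpGs of the unmethylated lambda spike-in stayed unconverted. The hepatoblast markers of the labelled liver were present (Alb, 26652 CPM in wild-type livers), as were the erythroid ones (Hbb-b1, 20512 CPM). *Rlf* mRNA did not differ (70.4 ± 1.73 CPM in wild-type and 74.6 ± 6.28 in mutant livers, SD, n = 3 each; log2 fold change 0.08, edgeR adjusted p = 0.646), so its level does not check the labels.

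Glutathione transferases made up most of the phase II message of E14.5 liver, and sulfotransferases the least. Of the 59 genes counted, 6 had no read in any library (Ugt1a5, Sult1c1, Sult1c2, Sult1e1, Sult2a4 and Sult3a1), and 30 passed the filter on low counts, 16 Gst, 11 Ugt and 3 Sult. No read could be assigned to Sult1c1, because 0% of its exon stretches are unique in the genome. Its lack of reads therefore says nothing of its expression. Levels between genes are given as CPM (counts scaled to library size) per kilobase of annotated exon, and levels of a single gene as CPM.

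The 8 members with the highest level per length were Ugt2b34 and 7 Gst genes. Gstp1, a pi-class enzyme, had 111, 108 and 109.9 CPM per kb in wild-type livers. Gstm5 and Gstm1, both of the mu class, had means of 110.8 and 91.9 CPM per kb. Gsta3 and Gsta4, alpha-class enzymes that act on lipid peroxidation products, had 74.3 and 66.0 CPM per kb, and Gstt1, of the theta class, had 52.1. Gstm2-ps1, a gene of 258 exonic bases annotated as protein coding, had 56.4 CPM per kb. Of its 50-base stretches 71.2% occur nowhere else in the genome, so part of its sequence could not be counted.

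The only Ugt gene in this range was Ugt2b34, with 417, 419 and 421 CPM in wild-type livers (97.1 CPM per kb). The wild-type ranges of Gstm5 (102.3 to 121.8 CPM per kb) and Gstp1 overlapped, and Ugt2b34 (96.6 to 97.7) lay just below both. Of the 50-base stretches of Gstp1 20.1% were unique, while 85.4% of those of Gstm5 could be assigned to it. Reads from the other stretches were left out, but the full exon length was used. The level per length of Gstp1 is therefore a low estimate, and no order between the 2 genes is read. Next in the Ugt2 cluster came Ugt2b35 (20.1 CPM per kb), Ugt2b36 (13.5) and Ugt2b5 (9.45). The Ugt1a genes were low as counted, the highest being Ugt1a9 with 1.57 CPM per kb and Ugt1a6a, which codes for a phenol-conjugating form, with 1.41. Ugt1a1, the bilirubin-conjugating enzyme, had between 0 and 2 reads in each library. All 9 Ugt1a genes share their 3′ exons, and 9.58% to 44.8% of the length of the 4 tested could be assigned to 1 gene. Their levels per length are therefore low estimates by unequal amounts, and no order among them is read. Among sulfotransferases, Sult1d1, Sult1a1 and Sult1b1, which act on catecholamines, phenols and thyroid hormone, passed the filter, with wild-type means of 6.30, 2.86 and 0.934 CPM per kb. None of the hydroxysteroid sulfotransferases of the Sult2 family passed it.

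**Figure D1:**
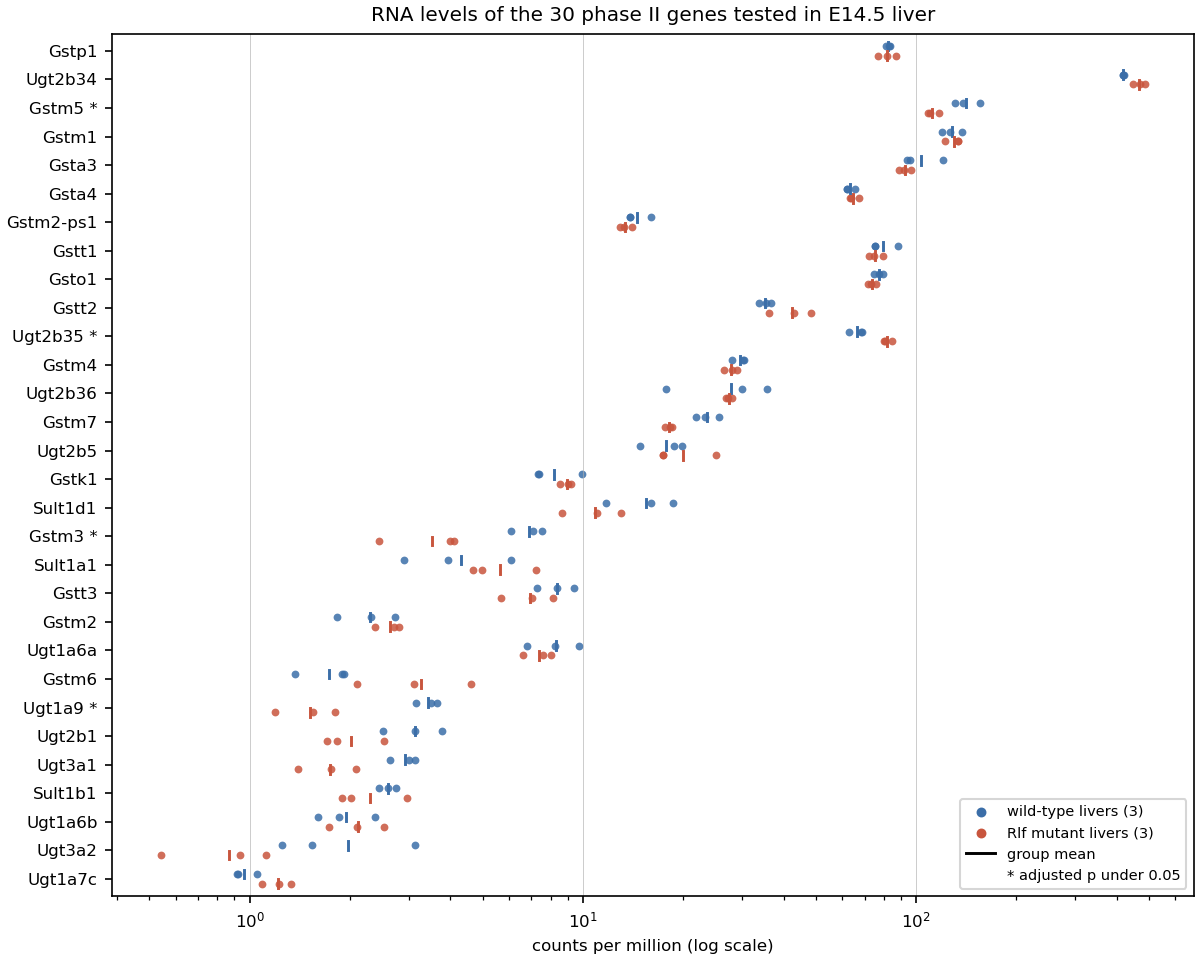
CPM (log scale) of the 30 tested phase II genes in E14.5 liver, ordered by level per length from top to bottom. Points are single livers (3 wild-type in blue, 3 *Rlf* mutant in red), short bars are group means, and an asterisk marks an adjusted p under 0.05. Ugt1a9, Gstm3 and Gstm5 lie lower in every mutant liver and Ugt2b35 higher in every mutant liver, while Gstp1, Gstm1 and Gsta4 overlap between the genotypes.

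To ask whether loss of Rlf changed these genes, the 3 mutant livers were compared with the 3 wild-type livers by the edgeR quasi-likelihood test over 14183 genes. Of the 30 members tested, 3 fell (Ugt1a9, Gstm3 and Gstm5) and 1 rose (Ugt2b35). Over all genes, 0.691% fell and 0.698% rose at the same threshold (98 and 99 genes). The median log2 fold change of the members was -0.07, with 18 lower and 12 higher, against -0.0017 over all genes tested. With 1 liver left out the member median ran from -0.090 (without mutant replicate 2) to -0.025 (without wild-type replicate 1). At an unadjusted p under 0.05 there were 12 of 30 members (8 lower, 4 higher) and 2071 of 14183 genes (14.6%).

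Ugt1a9, which glucuronidates phenols and fatty acids, had 48, 53 and 45 reads in wild-type livers (3.66, 3.502 and 3.16 CPM) and 20, 25 and 17 in mutant livers (1.55, 1.80 and 1.19 CPM). Every mutant liver lay below every wild-type liver. The log2 fold change was -1.18 ± 0.22 (SE; adjusted p = 0.0264), or 0.442 of the wild-type level. The other Ugt1a genes tested did not pass: Ugt1a6a had 8.28 ± 1.48 CPM in wild-type and 7.40 ± 0.724 in mutant livers (log2 fold change -0.16, edgeR adjusted p = 0.696), Ugt1a6b a log2 fold change of 0.12 and Ugt1a7c one of 0.33.

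Gstm3, a mu-class enzyme, had 7.55, 7.07 and 6.10 CPM in wild-type livers and 4.11, 2.45 and 4.002 in mutant livers, with no overlap. Its log2 fold change was -0.97 ± 0.19 (SE; edgeR adjusted p = 0.0344). Gstm6, the neighbouring gene on the same strand, had 1.37, 1.92 and 1.89 CPM in wild-type and 3.10, 4.62 and 2.11 in mutant livers. These groups did not overlap either, in the opposite direction, but the difference did not pass the test (log2 fold change 0.91 ± 0.29, edgeR adjusted p = 0.172). Without a filter on low counts it did (edgeR adjusted p = 0.0439). The 2 genes have overlapping annotated exons, and 83.0% of Gstm3 and 85.1% of Gstm6 could be assigned to 1 gene. Gstm5 had 155.6, 130.8 and 138.5 CPM in wild-type and 110.1, 116.7 and 108.4 in mutant livers, all of the latter lower. Its log2 fold change was -0.34 ± 0.07 (SE; edgeR adjusted p = 0.0414), and its first part overlaps 4933431E20Rik, from which reads cannot be separated without strand.

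Ugt2b35 rose, with 68.4, 63.0 and 68.6 CPM in wild-type and 80.2, 84.9 and 80.7 in mutant livers (log2 fold change 0.30 ± 0.06, SE; edgeR adjusted p = 0.0400). The groups did not overlap. Ugt2b34, in the same cluster, was also higher in each mutant liver (446, 485 and 469 CPM against 417 to 421), but its log2 fold change of 0.16 ± 0.06 had an adjusted p of 0.270 in edgeR. Gstm7 was named after its values were seen, because its call differed between settings. It had 25.6, 21.8 and 23.3 CPM in wild-type and 18.3, 17.7 and 18.53 in mutant livers (log2 fold change -0.37), with an adjusted p of 0.0765 in edgeR, 0.0450 with the replicate number as a block and 0.0394 without a filter on low counts. With that block 460 genes passed in place of 197, and 5 members in place of 4.

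The calls were near the threshold. Leaving out any 1 liver left between 0 and 2 of the 4 calls: 2 without wild-type replicate 2 (Gstm5 and Ugt1a9), 1 without mutant replicate 2 (Ugt1a9), and 0 without wild-type replicate 1, wild-type replicate 3, mutant replicate 1 or mutant replicate 3. Over all genes the calls went from 197 to between 66 and 115 in 5 of these fits and to 224 without wild-type replicate 2. The 4 directions held in each of these fits, and Ugt2b35 lost its call with labelled sex as a covariate (edgeR adjusted p = 0.0523).

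With a log2 fold change of at least 0.5 and no overlap between the genotypes there were 5 members, Ugt1a9, Gstm3, Gstm6, Ugt3a1 and Ugt3a2, of 30, against 3.39% of all genes tested. Ugt3a1 and Ugt3a2, which use N-acetylglucosamine or glucose as the sugar, are neighbours on chromosome 15. Ugt3a1 had 3.13, 2.64 and 3.02 CPM in wild-type and 1.397, 2.09 and 1.76 in mutant livers (log2 fold change -0.73 ± 0.22, edgeR adjusted p = 0.144). Ugt3a2 had 3.13, 1.26 and 1.54 CPM in wild-type and 0.543, 0.938 and 1.12 in mutant livers (log2 fold change -1.14 ± 0.40, edgeR adjusted p = 0.201). With 1 liver left out it ran from -1.39 (without wild-type replicate 2) to -0.67 (without wild-type replicate 1), and that of Gstm6 from 0.57 (without mutant replicate 2) to 1.15 (without mutant replicate 3). Of the 12 members at an unadjusted p under 0.05, 3 had no fixed reason to be named and are given for completeness. Sult1d1 had 18.7, 11.8 and 16.0 CPM in wild-type and 11.02, 13.1 and 8.63 in mutant livers, Ugt2b1 had 3.13, 2.51 and 3.79 against 1.71, 2.53 and 1.83, and Gstt2 had 33.9, 35.3 and 36.7 against 42.9, 48.4 and 36.1. The genotypes overlapped in all 3, and their adjusted p values in edgeR were 0.220, 0.249 and 0.230. Below the filter on low counts, Sult5a1 had 7, 9 and 12 reads in wild-type and 2, 1 and 5 in mutant livers, and Ugt8a had 8, 8 and 8 against 3, 5 and 0. Gstp2 had 2, 3 and 4 against 0, 1 and 1, Sult2a5 had 1, 1 and 1 against 0, 0 and 0, and Sult2a6 had 3, 2 and 0 against 3, 5 and 7. In each of these low-count genes the genotypes did not overlap in CPM. They were not tested, the share of all genes at such counts was not taken, and nothing is read from them.

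Of the 8 members with the highest level per length, Gstm5 fell and Ugt2b34 did not pass (log2 fold change 0.16). For the other 6 the log2 fold change was -0.01 for Gstp1, 0.02 for Gstm1, 0.04 for Gsta4, -0.08 for Gstt1, -0.12 for Gstm2-ps1 and -0.16 for Gsta3, each with a standard error of at most 0.11 and none past the test. With 1 liver left out, Gsta3 ran from -0.22 (without wild-type replicate 3) to -0.042 (without wild-type replicate 1) and Gstm2-ps1 from -0.16 (without wild-type replicate 1) to -0.050 (without wild-type replicate 2), and Gsta4 from 0.011 (without mutant replicate 3) to 0.065 (without wild-type replicate 1).

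The genes around the pathway were read from lists, against 0.691% of all genes lower and 0.698% higher. Among 14 genes of cosubstrate supply, such as Ugdh, Papss1 and Gclc, none passed the test. Among 14 tested of the other conjugating enzymes, 1 fell: Acsm1, which activates medium-chain fatty acids and benzoate for glycine conjugation, had 3.97, 3.04 and 4.35 CPM in wild-type and 1.55, 1.59 and 1.90 in mutant livers (log2 fold change -1.16 ± 0.22, edgeR adjusted p = 0.0282). None of 6 genes of hydrolysis and reversal passed. Among 15 regulators 1 rose: Ahr, the receptor for dioxin-like ligands, had 17.4, 17.6 and 22.4 CPM in wild-type and 31.2, 26.5 and 27.4 in mutant livers (log2 fold change 0.57 ± 0.11, edgeR adjusted p = 0.0319). Nfe2l2, the regulator of the antioxidant response, had a log2 fold change of -0.02. Among 9 transporters 1 rose: Abcc2, which exports conjugates into bile, had 53.9, 65.6 and 62.1 CPM in wild-type and 86.8, 80.3 and 73.5 in mutant livers (log2 fold change 0.40 ± 0.08, edgeR adjusted p = 0.0400). By sign, 4 transporters were higher and 5 lower. Abcb11, Slc10a1 and Abcc4 were lower in every mutant liver but did not pass (log2 fold change -0.46, -1.01 and -0.28, edgeR adjusted p = 0.0800, 0.176 and 0.256). Other listed genes also showed no overlap without passing, in both directions. Among them Gstz1 was lower (log2 fold change -0.25, edgeR adjusted p = 0.0880) and Foxa3 higher (0.27, 0.0969) in every mutant liver. The share of all genes without overlap at any size of change was not taken, and nothing is read from these. The calls in these lists were not followed in the fits with 1 liver left out.

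The summed level of 12 hepatoblast markers was 59675 to 70772 CPM in wild-type and 73135 to 85056 CPM in mutant livers, with 11 of 12 higher and 1 (Trf) past the test. The erythroid sum (10 markers) ran from 28881 to 53572 CPM in wild-type and 36082 to 39083 in mutant livers, with 9 of 10 lower and none past the test. Gata1 and Klf1 were lower in every mutant liver. The neutrophil sum (5 markers) ran from 573 to 820.0 and 509 to 599, with 4 of 5 lower, of which Elane, Ngp and S100a8 passed the test. Mpo was higher (log2 fold change 0.13) and Prtn3 nearly unchanged (-0.02), neither past the test. The 5 megakaryocyte markers summed to 474 to 495 and 557 to 627 CPM, with 5 of 5 higher and 1 (Pf4) past the test. The sums were 478 to 500.4 and 509.6 to 528 CPM for 6 macrophage markers, 268 to 295 and 297 to 347 for 6 endothelial markers, and 598 to 763 and 648 to 939 for 6 mesenchymal markers, with none of these 18 past the test. Their part in the phase II differences was not tested. In whole livers, fewer cells of a type and less RNA per cell cannot be told apart.

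Methylation was read over CpGs within 1 kb of each start. A CpG was used where each of the 12 libraries had 6 or more reads on it, and a window needed 3 such CpGs. Of the 60 windows 51 met this, among 31378 windows of all genes. The 9 windows not tested were CpG-poor or poorly covered ones of Gsta1, Sult1c1, Sult1d1, Sult2a1, Sult2a2, Sult2a5, Sult2a6, Ugt2b5 and Ugt2b38. Ugt1a6a and Ugt1a6b share 1 annotated start and so 1 window.

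The windows fell into an unmethylated and a methylated class. In 12 of 51, methylation stayed under 15% in every library: 10 glutathione transferases (Gsta4, Gstk1, Gstm1, Gstm4, Gstm5, Gsto1, Gsto2, Gstp1, Gstt2 and Gstt3), the brain sulfotransferase Sult4a1 and Ugt8a, the galactosyltransferase of myelin lipids. The other 39 held more than 15% in at least 1 library. The median number of usable CpGs was 45 in the 12 windows and 12 in the 39, with median ratios of observed to expected CpGs of 0.420 and 0.189 (0.340 over all windows tested). In wild-type E14.5 liver the medians were 5.13% and 58.0%. By family, the medians there were 54.4% for 19 Ugt, 59.6% for 12 Sult and 14.6% for 20 Gst windows.

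Gstp1 and Gstp2 lay far apart. Gstp1 had 3.08% and 2.69% methylated reads in wild-type E14.5 livers and 2.05% to 6.46% over all 12 libraries, from 33 CpGs and at least 703 reads per library. Gstp2, its neighbour, had 71.2% and 71.9% in wild-type E14.5 livers and 71.2% to 82.2% over the 12 libraries, from 25 CpGs and at least 466 reads. The RNA level also differed: Gstp1 had 1097, 1232 and 1180 reads in wild-type livers and Gstp2 2, 3 and 4, although multiply mapping reads were left out for both (20.1% and 15.8% of 50-base stretches unique).

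Across 50 members with both measures, Spearman's rho between wild-type methylation at the start and wild-type CPM per kb was -0.49 in E14.5 liver. The points share libraries, depth and, within the clusters, sequence, so the value is a description. Of the 12 unmethylated genes 9 had at least 1 CPM, all of them Gst, and the exceptions were Gsto2, Sult4a1 and Ugt8a. Of the other 38, 18 had at least 1 CPM. Ugt2b34, the member with the most reads, had 55.2% and 52.3% at its start in wild-type E14.5 livers, from 3 usable CpGs, and Gsta3 had 53.8% and 54.3% from 6. In whole livers, methylation in the cells that make the RNA cannot be told apart from that in other cells. Between genotypes, the methylation difference at the start and the log2 fold change gave a rho of -0.16 over 28 members.

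**Figure D2:**
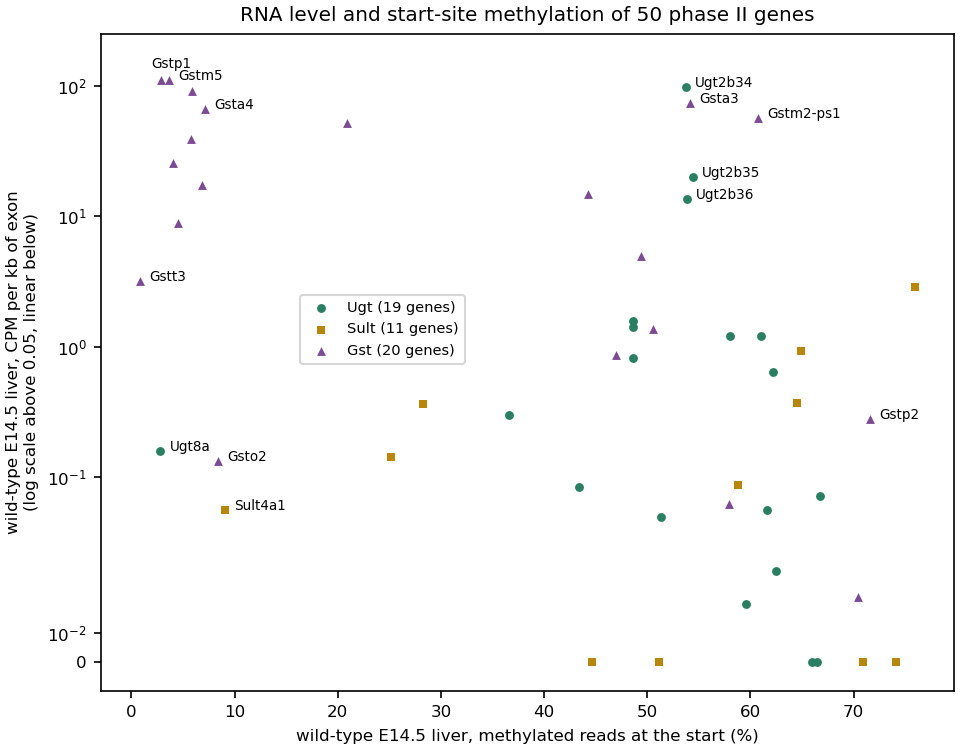
RNA level in wild-type E14.5 liver (vertical, CPM per kb of exon, log scale above 0.05 and linear below; mean of 3 livers) against start-site methylation (horizontal, percent of methylated reads; mean of 2 livers) for 50 phase II genes. Unmethylated Gst genes are at the upper left, with Gsto2, Sult4a1 and Ugt8a below them, and Ugt2b34 and Gsta3 at the upper right.

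Sequence features of the 300 bases around each start (250 before, 50 after) were searched on both strands. GTTAAT, the half-site of HNF1, occurred in 19 of 60 members (31.7%) and in 7.28% of 34653 autosomal genes, in 11 Sult, 7 Ugt and 1 Gst. They include Sult2a1 to Sult2a7, a cluster of recent copies, and Ugt1a6a and Ugt1a6b, which share 1 start. These members are not independent. Members whose region had under 45% GC held it in 14 of 32 (43.8%), all genes of that kind in 13.9%. The motif AGATAA, bound by erythroid and endodermal zinc finger factors of the Gata family, occurred in 16.7% of members and 12.5% of all genes. The TATA box, searched as TATAAA, was present in 16.7% and 15.8%. The core of the xenobiotic response element, GCGTG, was found in 23.3% and 30.5%. The core of the antioxidant response element, searched as TGACNNNGC, was found in 3.33% of members (Gsta3 and Gstm5) and 12.1% of all genes. These are matches of letters and say nothing of binding.

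**Figure D3:**
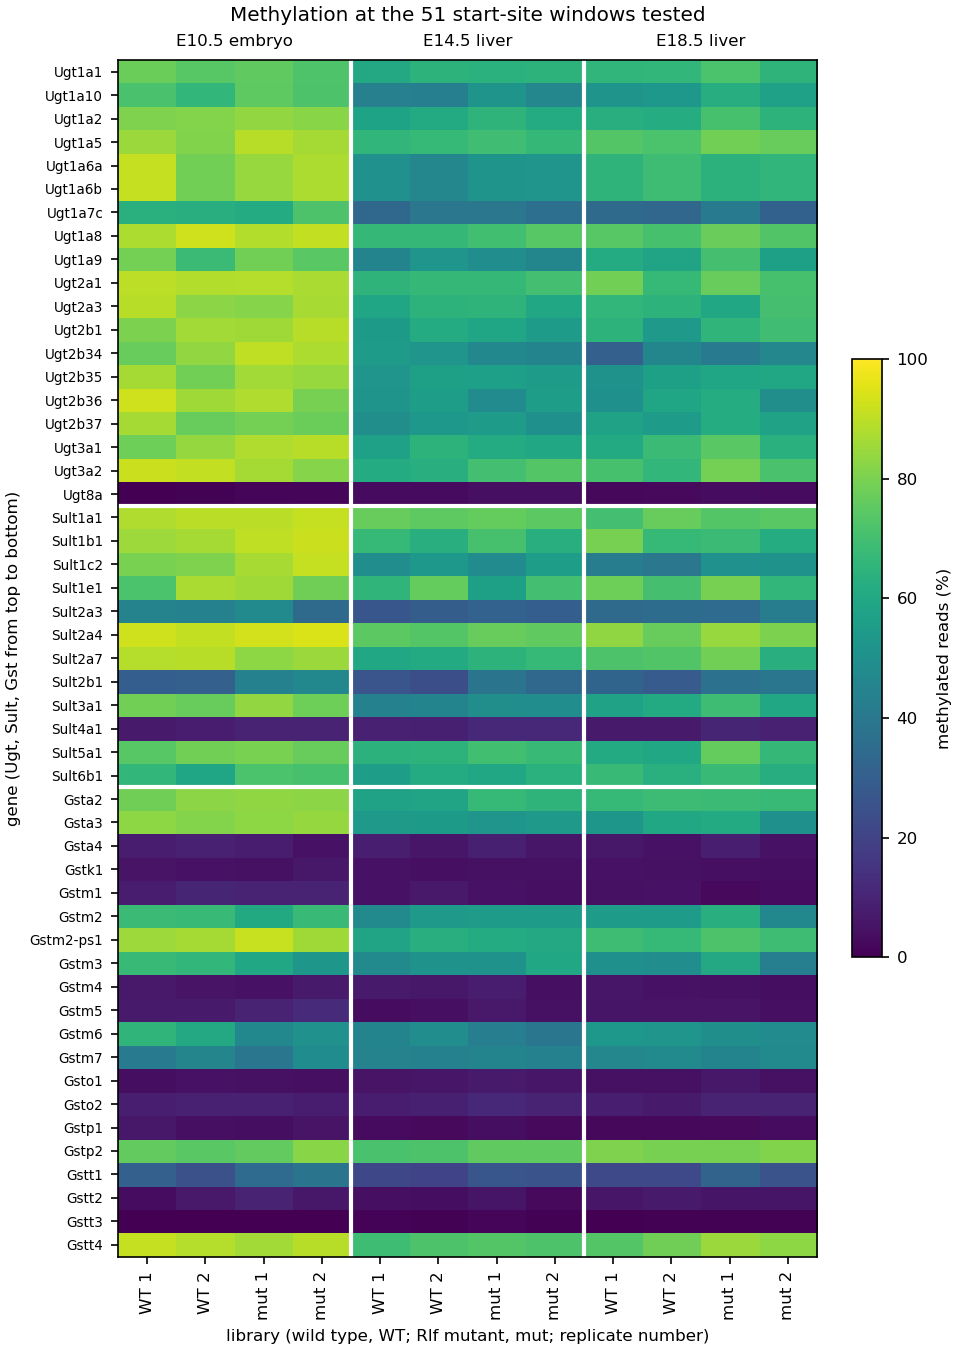
Percent of methylated reads (colour, 0 to 100) within 1 kb of the start of 51 phase II genes (rows, Ugt above Sult above Gst) in 12 libraries (columns). The 12 dark rows, 10 of them Gst, stay under 15% in each library, and most other rows are more yellow in E10.5 embryo than in liver.

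Most methylated phase II starts were less methylated in wild-type E14.5 liver than in wild-type E10.5 embryo. Of 51 windows, 30 were lower by more than 15 points with an adjusted p under 0.05 (edgeR over all 31378 windows), and none was higher by that much. Over all windows 36.2% were lower by the same rule. With at least 8 CpGs per window, 18 of 38 members and 7765 of 27145 windows of all genes were lower. Without the female wild-type E14.5 liver, replicate 2, which left male samples in both groups, 31 of 51 members and 11975 of 31378 windows of all genes were lower. These counts are over genes, and the window that Ugt1a6a and Ugt1a6b share is counted under both (29 of 50 distinct windows). The median difference of the members was -17.3 points against -5.96 over all windows. The members also started higher. Among windows above 60% in E10.5 embryo, 29 of 35 members (82.9%) and 71.9% of 15221 windows of all genes were lower, with medians of -23.6 and -19.9 points. These windows were selected on the E10.5 value that enters the difference. Part of the fall can come from that selection, in members and in all genes.

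By family, 17 of 19 Ugt windows were lower, 6 of 12 Sult and 7 of 20 Gst. The windows of the unmethylated class, most of them Gst, started too low to fall by the required margin. Median levels in wild-type E10.5 embryo were 82.6% for Ugt, 78.6% for Sult and 18.4% for Gst windows. The counts therefore do not compare the families at equal starting levels. The largest falls were at Ugt1a6a and Ugt1a6b, whose shared window had 91.2% and 78.7% in E10.5 embryos and 50.7% and 46.5% in E14.5 livers (-36.4 points, edgeR adjusted p = 8.37e-06), from 3 CpGs. Ugt2b36 fell from 92.9% and 85.7% to 51.6% and 56.0%, and Sult3a1 from 78.6% and 76.7% to 43.9% and 45.3%, each from 3 CpGs. Ugt2b37 fell by 30.2 points. Ugt3a2, with 17 CpGs, fell from 92.1% and 90.6% to 61.4% and 63.0% (-29.2 points, edgeR adjusted p = 5.19e-11). The groups did not overlap in any of these windows.

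Gstp2 and Gstm7, named after their values were seen, were methylated and did not pass. Gstp2 had 75.9% and 74.4% in E10.5 embryos and 71.2% and 71.9% in E14.5 livers (-3.59 points, edgeR adjusted p = 0.233), both lower. Gstm7 had 40.9% and 45.5%, then 44.7% and 43.9% (1.06 points, edgeR adjusted p = 0.792, and -2.63 points within 500 bp). The largest rises were small. Ugt8a rose from 0.381% and 0.754% to 2.79% and 2.81% (2.23 points, edgeR adjusted p = 6.89e-09) and Gstt3 from 0.147% and 0.124% to 0.979% and 0.642% (0.675 points, edgeR adjusted p = 0.0104). The Gstt3 call was lost within 500 bp, with thinned E14.5 libraries, without E10.5 wild-type replicate 2 and without E14.5 wild-type replicate 1 (edgeR adjusted p = 0.0698, 0.115, 0.0747 and 0.0634). Sult4a1, Gsto1, Gstm7 and Gstm4 had differences between 0.754 and 1.60 points that did not pass in the fit of all samples. In other settings Gstm4 passed with 6.15 points (coverage of at least 1 read, edgeR adjusted p = 0.0029), Sult4a1 with 1.83 (within 500 bp, 0.00174) and Gsto1 with 1.80 (coverage of at least 10 reads, 0.0478). Gstm4 ran from 0.0359 to 1.47 points with 1 library left out. The sequence 1 to 5 kb to either side of the starts was lower in E14.5 liver in 50 of 50 members with at least 3 usable CpGs there (Ugt2b36 had 1), with a median difference of -20.7 points, and in 12 of 12 of the unmethylated class, with -14.1 points. Over all genes it was lower in 29017 of 31272, with a median difference of -15.6 points.

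**Figure D4:**
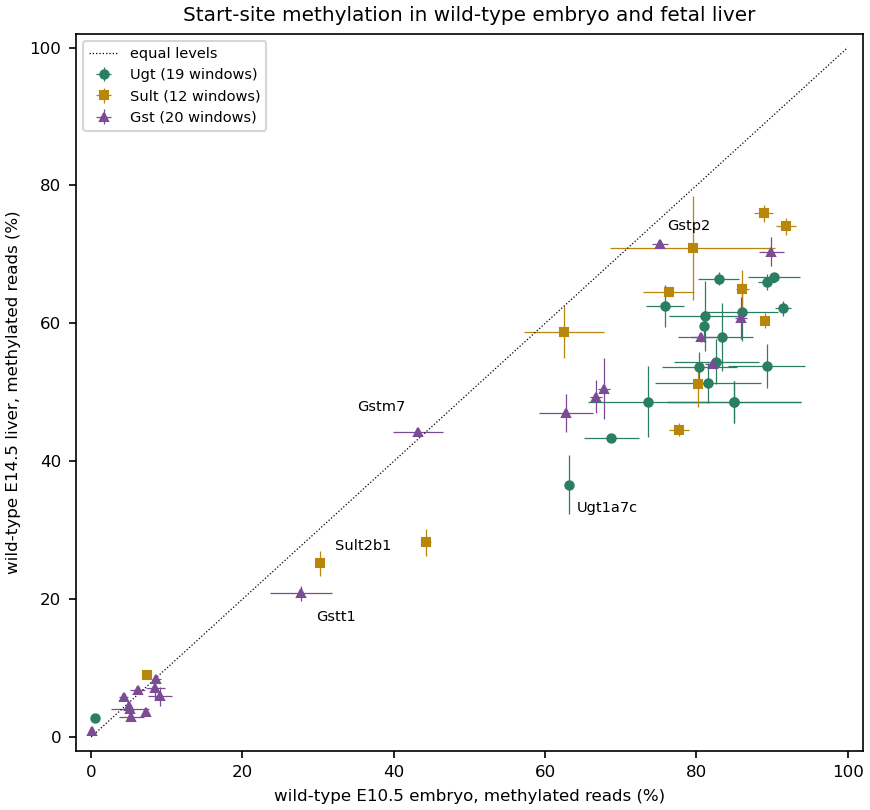
Methylated reads (%) at the start of 51 phase II genes in wild-type E14.5 liver (vertical) against wild-type E10.5 embryo (horizontal). Symbols are means of 2 samples with SD bars, coloured by family, and the dotted line marks equal levels. The 12 unmethylated windows sit at the lower left, and 45 of 51 lie below the line, with Gstm7 close to it.

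Between wild-type E14.5 and E18.5 liver, none of the 51 windows passed with more than 15 points, against 0.908% of all windows. These values share the E14.5 livers with the comparison above, and cell makeup differs along with stage. At an unadjusted p under 0.05, 15 members and 8209 of the 31378 windows of all genes differed, 12 of the 15 higher at E18.5. The median difference was 3.12 points against 0.953 over all windows. Without wild-type replicate 1 at E14.5 it was 1.499 points (0.497 over all windows) with 8 members at an unadjusted p under 0.05, and without wild-type replicate 2 at E14.5 it was 4.71 (1.35 over all windows). Without wild-type replicate 1 at E18.5 there were also 8 such members, and without wild-type replicate 2 at E18.5 there were 10. By adjusted p alone Gstp2 passed in the fit of all samples. Over all windows 5.06% did, and fewer did without any 1 of the wild-type livers of these stages. Gstp2 had 71.2% and 71.9% at E14.5 and 80.7% and 79.6% at E18.5 (edgeR adjusted p = 0.0450). That call was lost with coverage of at least 10 reads, within 500 bp, with thinned E14.5 libraries and with the replicate block (edgeR adjusted p = 0.0716, 0.202, 0.139 and 0.113), without wild-type replicate 1 or 2 at E14.5 or at E18.5 (edgeR adjusted p from 0.0892 to 0.282, with differences from 8.08 to 9.13 points), and without mutant replicate 1 or 2 at E14.5 (0.0646 and 0.0647). Gsta2 passed by adjusted p in 6 other settings (edgeR adjusted p from 0.0301 to 0.0480) and Sult2a7 in 5 (0.0282 to 0.0423). The largest rises, none past the test in the fit of all samples, were 18.4 points at Ugt1a6a and Ugt1a6b, 14.9 at Sult3a1, 12.1 at Sult2a7, 11.4 at Ugt1a9 and 9.81 at Gsta2. The largest falls were 15.6 points at Ugt2b34, from 55.2% and 52.3% to 30.6% and 45.8% (-7.98 points without E18.5 wild-type replicate 1 and -23.2 without replicate 2), and 10.3 at Sult1c2, with differences of -3.86 at Sult5a1, -2.64 at Sult1a1, -2.62 at Ugt1a7c and -1.88 at Sult4a1.

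No phase II start passed the main rule for a genotype difference, an adjusted p under 0.05 (edgeR) and more than 15 points, at any stage. Over all windows 0.389% passed at E10.5, 0.178% at E14.5 and 0.3% at E18.5. By adjusted p alone 3 of 51 members passed at E10.5 (Sult2b1, Gstm6 and Ugt8a; 1.89% of all windows), 1 at E14.5 (Sult2b1; 1.03%) and 0 at E18.5 (0.79%). The shares over all windows moved when 1 library of the stage was left out. At an unadjusted p under 0.05 there were 12, 6 and 7 members, with 9, 6 and 6 of them higher in mutants, against 4012, 3161 and 3266 of the 31378 windows of all genes. Leaving out 1 library of the stage left 7 to 10, 4 to 5 and 2 to 8 members, and 2618 to 4251, 1929 to 2821 and 2422 to 4967 windows of all genes.

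Sult2b1, a sulfotransferase of cholesterol and other hydroxysteroids, was more methylated in mutants at every stage. Its window (chr7, start at 53014982, 42 CpGs, at least 752 reads per library) had 29.9% and 30.7% in wild-type and 43.8% and 46.5% in mutant E10.5 embryos, a difference of 14.9 points (edgeR adjusted p = 0.00366). In E14.5 livers it had 26.5% and 23.9% against 38.6% and 33.7% (10.97 points, edgeR adjusted p = 0.0276). In E18.5 livers it had 32.3% and 28.8% against 37.6% and 39.4% (7.94 points, edgeR adjusted p = 0.313). Both mutants lay above both wild-type samples in each dataset.

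The CpGs of the window were also read one by one. Of the 42 CpGs, 36 were higher in mutants at E10.5, 41 at E14.5 and 31 at E18.5. Here and at Gstm6 below, the window was named for its large difference, and neighbouring CpGs can lie on the same reads. The counts of CpGs therefore describe the same difference and add no separate support. Within 250 bp of the start, a boundary chosen after the values were seen, the 30 CpGs had means of 12.9% and 25.4% in wild-type and mutant E10.5 embryos, 13.4% and 23.7% in E14.5 livers and 16.3% and 28.9% in E18.5 livers. The 12 CpGs farther out had 68.2% and 76.1%, 48.9% and 61.4%, and 56.5% and 58.0%. At E18.5 these 12 differed by 1.43 points, with 5 higher and 7 lower in mutants. The annotated start of the longest coding transcript lies 17129 bp downstream, at 52997853, and there the difference was -3.89, 0.252 and -1.96 points at the 3 stages, none past the test. RNA of the gene was near the limit of detection in E14.5 liver, with 1, 9 and 2 reads in wild-type and 2, 3 and 4 in mutant livers.

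Gstm6 differed in the other direction. Its window (chr3, start at 107746667, 14 CpGs, at least 229 reads) had 65.3% and 60.2% in wild-type and 46.8% and 50.7% in mutant E10.5 embryos, a difference of -14.0 points (edgeR adjusted p = 0.0312), and 13 of 14 CpGs were lower. In E14.5 livers it had 45.1% and 48.9% against 42.6% and 39.4% (edgeR adjusted p = 0.573), and in E18.5 livers 53.1% and 52.2% against 49.8% and 48.3% (edgeR adjusted p = 0.798). The mutants lay below the wild-type samples in each dataset. Such a position was held by 4, 3 and 6 of 51 members at E10.5, E14.5 and E18.5. Over all 31378 windows it was held by 2655, 2521 and 2982. At E18.5 the 6 members were all Gst, and 5 of them were of the unmethylated class. The share of windows below at all 3 stages was not taken.

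**Figure D5:**
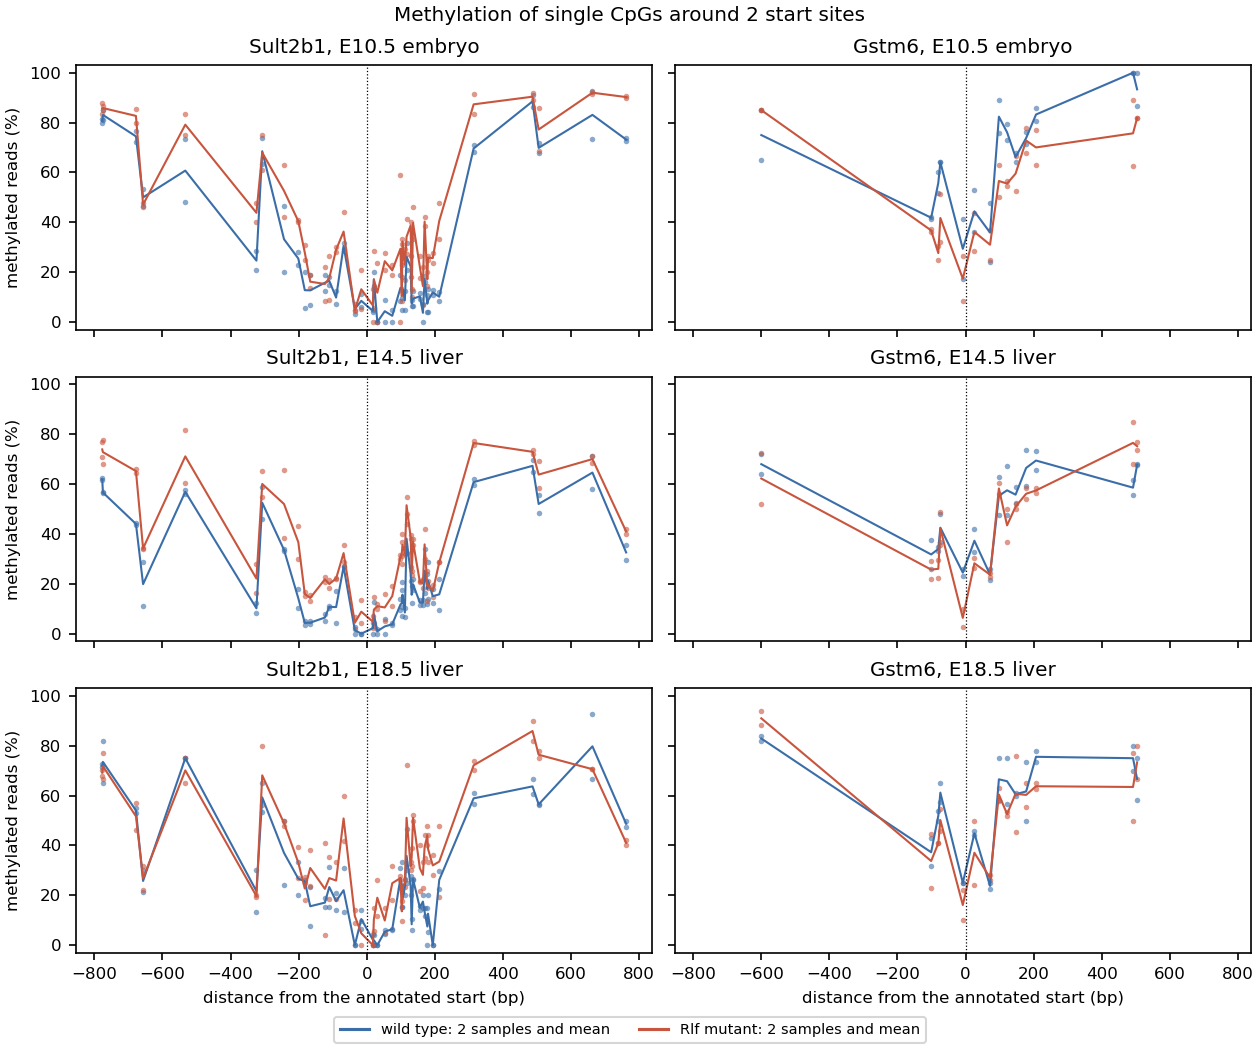
Methylated reads (%) at single CpGs within 1 kb of the start of Sult2b1 (left, 42 CpGs) and Gstm6 (right, 14 CpGs) against distance from the start in bp, with E10.5 at the top, E14.5 in the middle and E18.5 at the bottom. Points are single samples (2 per genotype) and lines are genotype means. The mutant line lies above the wild-type line at 36, 41 and 31 of the 42 CpGs of Sult2b1, and below it at 13, 11 and 10 of the 14 CpGs of Gstm6.

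These calls moved with single libraries. Sult2b1 at E10.5 lost its call without wild-type replicate 1 (edgeR adjusted p = 0.0809) or mutant replicate 2 (0.0858), and at E14.5 without any 1 of the 4 E14.5 livers (adjusted p from 0.0952 to 0.587), with differences from 13.6 to 16.2 points and 8.54 to 13.4 points. Gstm6 at E10.5 lost its call without wild-type replicate 1, mutant replicate 1 or mutant replicate 2 (edgeR adjusted p of 0.460, 0.208 and 0.0989). Ugt8a at E10.5, a CpG island of 137 CpGs with 0.381% and 0.754% in wild-type and 1.18% and 1.69% in mutant embryos, passed with a difference of 0.871 points (edgeR adjusted p = 0.0135) and lost its call without wild-type replicate 1 or mutant replicate 2. Ugt8a also lost its call in a fit of the compared groups alone (edgeR adjusted p = 0.0618). Within 500 bp of its start the difference was 0.169 points and did not pass (edgeR adjusted p = 0.632).

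Of the other windows with large differences, Gstm3 had 67.2% and 66.1% in wild-type and 59.8% and 52.8% in mutant E10.5 embryos (edgeR adjusted p = 0.363; -6.85 points without mutant replicate 2 and -13.9 without mutant replicate 1), Gstt1 a difference of 9.02 points and Sult1c2 one of 8.80. At E14.5, Ugt3a2 was 9.47 points and Gsta2 8.03 points higher in mutants, and the differences were -7.86 points at Ugt2b34 and -7.57 at Sult1e1, the latter -0.844 without mutant replicate 1 and -14.3 without mutant replicate 2. None of these passed in the fit of all samples. In a fit of the compared groups alone Ugt3a2 passed by adjusted p (edgeR adjusted p = 0.0440), as did 1020 of 31378 windows of all genes. At E18.5, Sult5a1 had 61.3% and 60.1% in wild-type and 76.2% and 66.8% in mutant livers (10.8 points, edgeR adjusted p = 0.137). Without mutant replicate 2 it passed, with 15.5 points (edgeR adjusted p = 0.0161), and without mutant replicate 1 the difference was 6.13 points. Sult1c2 was 10.2, Gstt4 8.18 and Ugt2b1 8.12 points higher, and Sult1b1 had a difference of -8.43 points, none past the test. With 1 library left out, Ugt2b1 ran from 2.58 points (without wild-type replicate 2) to 13.7 (without wild-type replicate 1), and Sult1b1 from -14.7 (without wild-type replicate 2) to -2.20 (without wild-type replicate 1).

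Most members, like most genes, had slightly higher values in mutants. The median difference was 1.30 points at E10.5, 1.59 at E14.5 and 1.14 at E18.5, against 0.459, 0.649 and 0.433 over all windows, and among windows above 60% in wild-type E10.5 embryo 1.95, 1.98 and 2.24 for members against 1.03, 1.94 and 2.25 for all genes. At E10.5 the latter medians share the wild-type samples by which the windows were selected. The median of the 51 members moved with single libraries. It was 0.623 at E10.5 without mutant replicate 2 (0.332 over all windows) and 0.818 at E14.5 without wild-type replicate 1 (0.312 over all windows). At E18.5 it was 0.345 without mutant replicate 1 and 4.14 without mutant replicate 2 (0.0103 and 1.13 over all windows). Both mutants lay above both wild-type samples in 16, 21 and 17 of 51 members, against 32.7%, 36.3% and 28.5% of all windows. They did so at all 3 stages in 6 members (Sult2b1, Gstt1, Sult4a1, Ugt1a2, Ugt1a10 and Ugt8a; 11.8%), and in 7.05% of all windows. Gstt1, of the theta class, was the next largest of these after Sult2b1 at E10.5, with 30.6% and 24.8% against 34.9% and 38.6% in E10.5 embryos, 21.6% and 20.05% against 26.7% and 25.5% in E14.5 livers, and 22.0% and 22.0% against 31.9% and 25.5% in E18.5 livers (edgeR adjusted p = 0.141, 0.431 and 0.366). At the later stages the difference was 5.63 and 7.21 points at Ugt1a10, against 5.27 and 6.66 at Gstt1. Single libraries moved these values: without mutant replicate 1 or 2, Ugt1a10 had 2.92 or 8.35 points at E14.5 and 4.56 or 9.85 at E18.5, and Gstt1 3.46 or 9.86 at E18.5, so no order is read from them.

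At the start sites of the members with RNA calls, no genotype difference passed in E14.5 liver. The window of Ugt1a9 had 44.99% and 52.2% in wild-type and 48.99% and 45.8% in mutant livers, that of Gstm3 47.7% and 51.04% against 51.03% and 59.8%, that of Gstm5 3.28% and 3.98% against 6.95% and 4.44%, and that of Ugt2b35 52.1% and 56.8% against 56.4% and 55.3%. The groups overlapped at Ugt1a9, Ugt2b35 and, narrowly, Gstm3, and did not at Gstm5, where the difference was 2.06 points (edgeR adjusted p = 0.256).

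The genotype difference itself was compared between stages by an interaction term. It passed in 0 of 51 members between E10.5 and E14.5 (0% of all windows; 5 members and 1411 windows at an unadjusted p under 0.05) and in 0 between E14.5 and E18.5 (0.00319% of all windows, which is 1 window; 1 member and 1106 windows at an unadjusted p under 0.05). The unadjusted counts moved when 1 library was left out. In the sequence 1 to 5 kb from the starts, the mutant mean was higher in 37 of 50 members at E10.5, 45 at E14.5 and 42 at E18.5, with a median difference of 2.53 points at E14.5. Over all genes it was higher in 24310, 26527 and 25631 of 31272, with a median of 1.81 points at E14.5.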

How the data were processed

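The members and gene lists were chosen with earlier results of these data known. RNA was sequenced by the authors as 50-base single reads without strand, aligned with TopHat, and counted per Ensembl gene with htseq-count (intersection-strict), which leaves out multiply mapping reads; the deposited values are whole-number counts, not normalized. For WGBS, the authors aligned paired reads with Bismark to mm9 carrying FVB substitutions, removed duplicates and merged strands. The deposited files give counts of unconverted (methylated) and converted reads per CpG. The authors' column of percent methylation per CpG, rounded in the deposited files, was not used. Counts were tested on Ensembl identifiers, with symbols and starts from GENCODE on NCBIM37.

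RNA counts were filtered by filterByExpr, scaled by TMM and tested with the edgeR (4.0.16) quasi-likelihood test in R 4.3.3, with Benjamini-Hochberg adjustment over all 14183 genes and a threshold of 0.05. For WGBS, methylated and unmethylated reads were summed within 1 kb of the most upstream protein-coding start. A CpG needed 6 or more reads in each of the 12 libraries, and a window 3 such CpGs. One edgeR fit over all 31378 windows and 12 libraries gave every contrast, and a call needed an adjusted p under 0.05 and more than 15 points between group means. Differences are mutant minus wild type, or later minus earlier stage. Standard errors of log2 fold changes were derived from the test, as the absolute log2 fold change over the square root of the quasi-likelihood F statistic. Both fits were tested on simulated data. The share of a gene that could be counted is the share of its 50-base exon stretches found nowhere else in the genome and in no other gene.

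Named genes were the members past a threshold, those with a log2 fold change of at least 0.5 and no overlap, the 8 highest per length, and the windows with the largest differences. Same-numbered RNA samples deviated together (correlations of deviations 0.140, 0.221 and 0.415 over 14183 genes), against -0.278 to 0.084 for differently numbered ones. Labelled sex follows the replicate number, so pairing and sex cannot be told apart. The main test used no block. Alternatives were RLE scaling, DESeq2 (1.42.0), other filters, sex, the block, other windows, starts and coverage minimums, thinned E14.5 libraries, and each library left out. The effect of depth was not compared by the number of CpGs in a window. The ChIP samples were not analysed here.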

Additional observations from a re-analysis of the deposited data

Results flagged for a closer look

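At 3 genes the genotype difference in start-site methylation had opposite directions at E10.5 and E14.5, with every mutant on one side of the wild-type samples at one stage and on the other side at the other stage. These were 3 of 51 members (5.88%), against 1190 of 31378 windows of all genes (3.79%). Ugt3a2 had a difference of -7.33 points at E10.5 and 9.47 at E14.5, a change of 16.8 points (edgeR interaction test, adjusted p = 0.427). Ugt2b34 had 8.70 and -7.86 points, a change of -16.6 (edgeR interaction test, adjusted p = 1), from 3 CpGs. Sult2a7 had -5.00 and 5.45 points, a change of 10.46 (edgeR interaction test, adjusted p = 1). Gstm5 had 2.06 points at E14.5 and -0.771 at E18.5, a change of -2.83 (edgeR interaction test, adjusted p = 1). Gstm5 was the 1 member of 51 with opposite sides between these stages, against 3.69% of all windows. None passed the adjusted threshold. Between E10.5 and E18.5 the change was 14.02 points at Ugt3a2 (-7.33 and 6.69) and -4.65 at Gstm5 (3.88 and -0.771), and these differences between stages were not tested. These were 2 members, against 4.13% of all windows.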

How the results depend on the processing

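The 4 RNA calls were also 4 with RLE scaling, DESeq2 and a filter of 1 CPM, 6 without a filter (Gstm6 and Gstm7 added), 3 with sex and 5 with the replicate block, and 0 to 2 with each library left out. For methylation between genotypes, where 0 members passed, a minimum of 10 points gave 2 at E10.5 (Sult2b1, Gstm6) and 1 at E14.5 (Sult2b1), of 280 and 143 windows of all genes, coverage of at least 1 read gave 1 at E10.5 (Sult2b1, of 125), and windows of 500 bp gave 1 at E10.5 (Gstm6, of 152) and 1 at E18.5 (Sult5a1, of 112; 18.7 points, edgeR adjusted p = 0.0291). Leaving out each library gave 0 to 2 at E10.5, 0 at E14.5 and 0 to 1 at E18.5. Of the 30 windows lower at E14.5 than at E10.5, at least 8 CpGs left 18, and leaving out each library gave 27 to 31. Between E14.5 and E18.5, thinned E14.5 libraries gave 1 (Sult2a7, 16.5 points). The WGBS replicate numbers did not pair the samples (correlations 0.0507, -0.0247 and -0.0340), and the block left 0 genotype calls at each stage and 30 between E14.5 and E10.5.

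Some directions reversed, and the cause was not tested. For RNA these were log2 fold changes of Gstm1 (-0.027 without wild-type replicate 1, -0.00094 without mutant replicate 2, -0.0030 without mutant replicate 3, range to 0.072), Gstp1 (0.033 without mutant replicate 3, range from -0.060) and Gstt1 (0.0015 without wild-type replicate 1, range from -0.12). With the start of the longest coding transcript, Sult2b1 had -3.89 points at E10.5 and -1.96 at E18.5 and Gsta2 -2.79 at E14.5. Within 500 bp, Ugt1a2 had -1.56 at E10.5, and Gstm4 -0.0148 and Gstm7 -2.63 between E14.5 and E10.5. Sult1e1 had 2.14 at E14.5 with coverage of at least 1 read. Gstm7 had -1.25 between E14.5 and E10.5 without E10.5 wild-type replicate 1 (range to 3.37), and between E18.5 and E14.5 Sult1a1 had 0.707 without E18.5 wild-type replicate 1 (range from -5.98) and Ugt1a7c 0.390 without E14.5 wild-type replicate 2 (range from -5.63). Sult2b1 at E14.5 lost its call with coverage of at least 1 read, 500 bp windows and thinned libraries (edgeR adjusted p = 0.0517, 0.0873 and 0.0780), and Gstm6 at E10.5 with coverage of at least 10 reads and in a fit of the compared groups alone (0.0558 and 0.0517).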
